A study of Mus musculus with 4 samples.

Results

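Lipid-associated macrophages are tissue macrophages that take up and break down lipid from dying cells and lipoproteins. Their program is known from fat tissue, arterial plaques, brain and tumors and depends on the receptor TREM2, which binds lipids and lipoproteins, among them APOE, and signals through the adaptor TYROBP. Genes for lipid hydrolysis, fatty acid transport, tetraspanins and lysosomal proteases are usually switched on with it. The 9 genes Trem2, Apoe, Gpnmb, Lpl, Fabp5, Lgals3, Cd63, Cd9 and Ctsd, chosen by name out of 32285 genes in the count matrices, were followed in 4 cell classes of YUMMER1.7 tumors. YUMMER1.7 is a mouse melanoma line.

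Male wild-type C57BL/6J mice of 7 to 8 weeks of age received 300000 YUMMER1.7 cells under the skin, and intraperitoneal treatment began on day 7. The arms were isotype (IgG1), anti–PD-1 at 10 mg/kg (RMP1-14), anti-MIF at 20 mg/kg (IIID.9) and both antibodies together, written anti–PD-1/anti-MIF. The short treatment cohort had 2 doses over 1 week, with tumors taken on day 14, and the long treatment cohort had 4 doses over 2 weeks, with tumors taken on day 21. Sorted cells were recombined to 20% CD45- and 80% CD45+, labelled by arm with hashtag antibodies and pooled, so each cohort was 1 gene expression library and 1 hashtag library. The hashtags do not separate mice within an arm. Each arm is therefore 1 sample, and cohort, day and library cannot be told apart.

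The long cohort held 2516 barcodes with 23702910 unique molecular identifiers (UMIs, counts of captured RNA molecules), and the short cohort held 4987 barcodes with 31799441 UMIs. The cohorts shared 20 barcode sequences, of which 12 belonged to kept cells. After filtering, 4790 cells of the 8 arms remained. C1q-positive macrophages were cells with at least 2 UMIs each of Lyz2 and C1qb, monocytes of Lyz2 and Ly6c2, mature dendritic cells (DC) of Ccr7 and Fscn1, and T cells of Cd3e. These rules gave 488 macrophages, 1520 monocytes, 145 mature DC and 470 T cells. A further 388 cells met both the macrophage and the monocyte rule and were kept apart. Macrophages of the long cohort numbered 8 (isotype), 21 (anti–PD-1), 234 (anti-MIF) and 38 (anti–PD-1/anti-MIF), and those of the short cohort 101, 43, 32 and 11 in the same order, so that the long anti-MIF arm alone held 234 of 488.

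Levels are given as UMIs per 1000000 UMIs of a class in an arm (CPM) and are compared between classes and arms for 1 gene at a time, not between genes. The genes that check the labels were not used by the rules. C1qa had a median of 2200 CPM in macrophages and 4.59 CPM in monocytes. The cells that met both rules, which had been set apart, had a median of 1277 CPM. The low C1qa level of monocytes thus follows in part from the rules and is not an independent check. The summed level of 5 further monocyte genes had a median of 6070 CPM in monocytes and 726 CPM in macrophages. In macrophages it was highest in the short anti–PD-1 arm, at 1900 CPM, and the short anti-MIF arm, at 1857 CPM, where Plac8 led. Csf1r, the receptor for macrophage colony-stimulating factor, did not separate these classes, with medians of 410 and 398 CPM. Ccl22 had a median of 672 CPM in mature DC and was at 0 in macrophages. Of the melanoma genes, Pmel, Mlana, Tyr, Tyrp1, Dct and Sox10 were at 0 in macrophages. The list also held Mitf and S100b, which were not among these. Mitf was counted in macrophages and was higher there than in T cells (log2 fold change 4.76 ± 0.43, SE, adjusted p = 2.73e-12).

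In the 8 long-cohort isotype macrophages Lyz2 was at 703 CPM, the lowest of the arms, and Spp1 was at 0. Type 1 conventional DC genes summed to 131 CPM there, all of it from Cadm1, against a median of 55.1 CPM. In the 21 long-cohort anti–PD-1 macrophages that list summed to 222 CPM, the highest, of which Cadm1 gave 181 CPM. In the 11 short anti–PD-1/anti-MIF macrophages it summed to 141 CPM, and Xcr1 led at 51.1 CPM. In monocytes, neutrophil genes summed to between 49.4 and 1875 CPM in the other arms and to 13884 CPM in the long anti–PD-1/anti-MIF arm, where 5 of 61 cells held at least 50 UMIs of the list. The part of these cells in the results was not tested.

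In GENCODE vM21 on the GRCm38 assembly Trem2 is at chr17:48346401-48354147 on the plus strand, Apoe at chr7:19696109-19699188 on the minus strand, Gpnmb at chr6:49036546-49070929 (plus), Lpl at chr8:68880491-68907448 (plus), Fabp5 at chr3:10012548-10016607 (plus), Lgals3 at chr14:47367751-47386160 (plus), Cd63 at chr10:128900989-128912822 (plus), Cd9 at chr6:125460266-125494791 (minus) and Ctsd at chr7:142375911-142388038 (minus), all annotated as protein coding genes. The RefSeq promoter table on GRCm38.p6 matched 7 of the 9 genes. The 250 bases before the start are shown for Trem2 (chr17:48346151-48346400, plus strand) and Apoe (chr7:19699189-19699438, minus strand), whose levels moved together, and for Ctsd (chr7:142387828-142388077, minus strand), which T cells carried as well. Capitals mark the AP-1 letters TGANTCA in Trem2, and the E-box CACGTG and the CLEAR letters TCACGTGA of lysosomal genes in Ctsd. Apoe held none of the searched letters.
Trem2: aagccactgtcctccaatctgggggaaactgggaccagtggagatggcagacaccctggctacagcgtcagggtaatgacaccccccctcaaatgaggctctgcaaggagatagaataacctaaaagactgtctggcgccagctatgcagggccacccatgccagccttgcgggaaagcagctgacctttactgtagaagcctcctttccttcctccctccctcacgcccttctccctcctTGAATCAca
Apoe: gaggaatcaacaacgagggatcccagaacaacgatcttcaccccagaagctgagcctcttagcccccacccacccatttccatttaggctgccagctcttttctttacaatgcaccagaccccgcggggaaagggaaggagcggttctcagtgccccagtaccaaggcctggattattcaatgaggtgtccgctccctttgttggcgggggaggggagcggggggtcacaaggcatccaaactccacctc
Ctsd: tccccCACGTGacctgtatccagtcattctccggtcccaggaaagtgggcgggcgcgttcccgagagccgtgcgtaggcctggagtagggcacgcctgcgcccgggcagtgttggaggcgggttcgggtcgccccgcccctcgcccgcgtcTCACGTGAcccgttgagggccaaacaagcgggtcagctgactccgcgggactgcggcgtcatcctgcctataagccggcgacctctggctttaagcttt
Motifs were searched on both strands from 250 bases before to 50 bases after the start. Positions are counted from the start in the RefSeq table. It is also the GENCODE start for Trem2 and Apoe, but for Ctsd it lies 211 bases inside the GENCODE gene, so most of the Ctsd sequence shown falls within that gene's span. The AP-1 letters began 9 bases before the Trem2 start and are found in 7.81% of 32851 promoters, and they also lay 9 bases after the RefSeq start of Gpnmb. The E-box occurred 245 and 98 bases before the RefSeq start of Ctsd, and is found in 7.15% of promoters. The CLEAR letters overlapped the nearer E-box and are found in 0.974% of promoters. The PU.1 letters GAGGAAGT (3.2% of promoters), the NF-kappaB motif (0.411%) and the LXR direct repeat motif (0.0152%) were in none of the 7 windows. A match is a run of letters and not a measured binding site.

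C1q-positive macrophages were first compared with monocytes, to ask which of the 9 genes differ between cells chosen by C1qb and cells chosen by Ly6c2. The rules do not measure where a cell came from, and Ccr2, a chemokine receptor gene of monocytes, had medians of 276 CPM in macrophages and 385 CPM in monocytes. In macrophages Ccr2 was at 16.3 CPM in long isotype and 52.5 CPM in long anti–PD-1, and between 205 and 365 CPM in the other arms. The part of this difference in the results was not tested. Trem2, Apoe, Cd63 and Ctsd were higher in macrophages, Fabp5 was lower, and Gpnmb, Lgals3 and Cd9 did not pass the test. Of 7494 genes tested, 14.7% were called higher and 16.3% lower in macrophages (adjusted p under 0.05), and of 8 members tested 4 were called higher and 1 lower. Lpl did not reach the minimum count.

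The receptor Trem2 ranged from 148 to 345 CPM in the macrophages of the 8 arms, with a median of 233, and from 38.9 to 89.0 CPM in monocytes, with a median of 60.5. The ranges did not overlap. The log2 fold change was 2.02 ± 0.14 (SE, adjusted p = 3.14e-14).

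Apoe, which encodes the lipoprotein component that TREM2 can bind, ranged from 573 to 4230 CPM in macrophages, with a median of 2159, and from 283 to 924 CPM in monocytes, with a median of 381. Macrophages were higher in 8 of 8 arms, although the short anti–PD-1 macrophages, at 573 CPM, lay below the long anti-MIF monocytes, at 924 CPM. The log2 fold change was 2.21 ± 0.19 (SE, adjusted p = 1.35e-11).

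Cd63, a tetraspanin of late endosomes and lysosomes, ranged from 54.7 to 239 CPM in macrophages and from 6.50 to 28.8 CPM in monocytes. The ranges did not overlap, and the log2 fold change was 2.80 ± 0.23 (SE, adjusted p = 2.56e-12). Ctsd, the lysosomal aspartic protease cathepsin D, had medians of 325 and 202 CPM and was higher in macrophages in 7 of 8 arms, with overlapping ranges and a log2 fold change of 0.71 ± 0.16 (SE, adjusted p = 0.000896). In the long cohort alone Ctsd did not pass, at 0.66 with an adjusted p of 0.0737.

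Fabp5, a fatty acid carrier, went the other way. Its median was 63.5 CPM in macrophages and 164 CPM in monocytes, and it was lower in macrophages in 6 of 8 arms. The log2 fold change was -1.10 ± 0.31 (SE, adjusted p = 0.00632), and it was -0.54 with an adjusted p of 0.288 in the short cohort alone. Galectin-3, encoded by Lgals3, had medians of 2031 CPM in macrophages and 2327 CPM in monocytes (log2 fold change -0.39 ± 0.23, SE, adjusted p = 0.217), and passed with the 2 classes alone in the fit (-0.42, adjusted p = 0.00863), with gates of 4 UMIs (-0.68, adjusted p = 0.00964), with thinning to 2000 UMIs (-0.57, adjusted p = 0.00339) and with no filter on low counts (-0.60, adjusted p = 0.000410). The tetraspanin gene Cd9 had medians of 196 and 197 CPM (log2 fold change -0.12 ± 0.20, SE, adjusted p = 0.710).

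Gpnmb, a transmembrane glycoprotein often listed among lipid-associated macrophage genes, was sparse in both classes. It ranged from 0 to 51.1 CPM in macrophages, with a median of 5.83, and from 0.809 to 74.8 CPM in monocytes, with a median of 20.3. It was lower in macrophages in 6 of 8 arms, and the log2 fold change was -0.99 ± 0.42 (SE, adjusted p = 0.0710). It passed the test without the long anti-MIF arm (-1.27, adjusted p = 0.0265) and without the short anti–PD-1/anti-MIF arm (-1.27, adjusted p = 0.0241). It also passed with gates of 4 UMIs (-1.43, adjusted p = 0.00989), with no filter on low counts (-1.18, adjusted p = 0.00279), with no upper limit on genes per cell (-1.08, adjusted p = 0.0455) and with the arm of a 5th hashtag, whose name adds DDT to the combination, added (-1.21, adjusted p = 0.00753). The UMIs came from few cells, 33 UMIs in 15 of 488 macrophages and 290 UMIs in 74 of 1520 monocytes. Lpl, the lipase that frees fatty acids from triglyceride-rich lipoproteins, had 71 UMIs in 30 of 488 macrophages and 102 UMIs in 57 of 1520 monocytes. Of the monocyte UMIs, 77 came from the short anti–PD-1 arm, where 3 were in macrophages. Over the pooled UMIs the ratio of macrophages to monocytes was 1.65 (95% interval 1.20 to 2.25, counting error only), and within single arms its log2 ran from -0.87 in short anti–PD-1 to 6.97 in long anti–PD-1. Leaving out 1 arm, an alternative chosen after seeing the data, gave 4.58 (2.86 to 7.56) without short anti–PD-1 and 3.0 (2.12 to 4.21) without long anti-MIF. Both omissions raised the ratio. It fell without long isotype (311 CPM in macrophages, all from 1 cell) and without long anti–PD-1 (99.2 CPM, mostly from 1 cell). The intervals of these lower ratios included 1. Lpl was tested only where a setting let it past the filter. It was then higher in macrophages, by 1.92 ± 0.34 (SE, adjusted p = 5.54e-07) with no filter on low counts, 2.68 ± 0.58 (SE, adjusted p = 0.000605) with the arm of the 5th hashtag and 2.09 ± 0.63 (SE, adjusted p = 0.0165) with the 2 classes alone in the fit. In the short cohort 25 of the 26 macrophage UMIs of the 5th hashtag came from 1 cell.

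**Figure D1:**
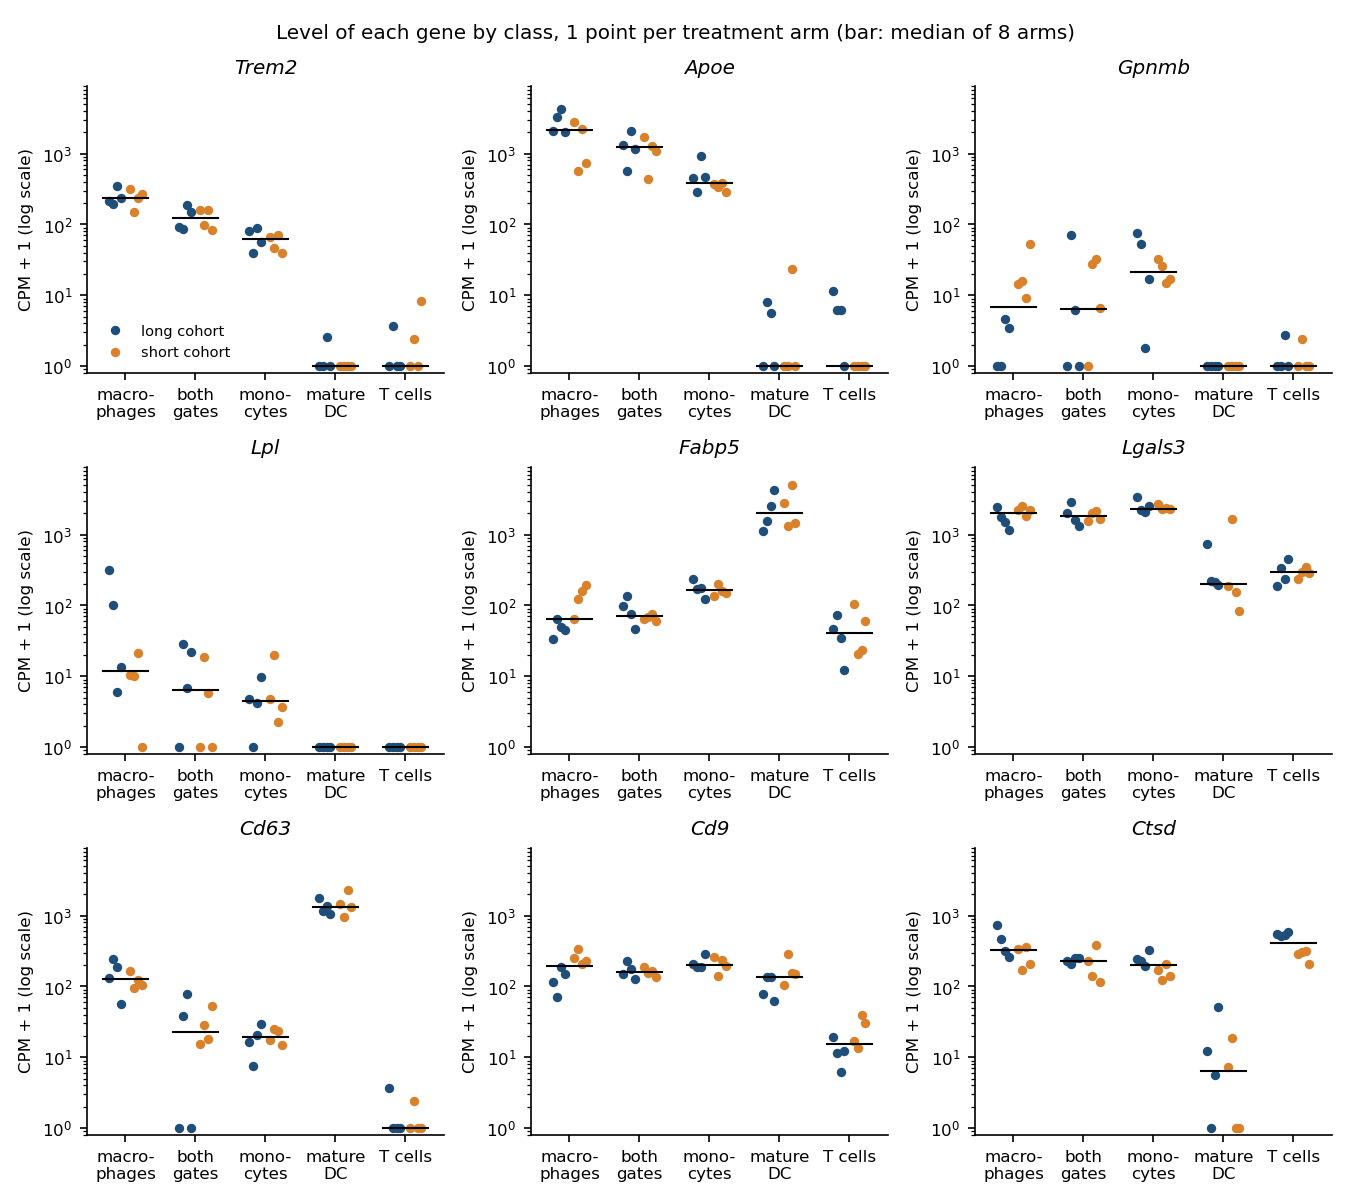
Level of each of the 9 genes (CPM + 1, log axis) in macrophages, cells that met both rules, monocytes, mature DC and T cells, with 1 point per arm (blue, long cohort; orange, short cohort) and a bar at the median of the 8 arms. Trem2 lay between 148 and 345 CPM in macrophages and between 38.9 and 89.0 CPM in monocytes, whereas Fabp5 and Cd63 were highest in mature DC.

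The 388 cells that met both rules lay between the classes for part of the list. Median Trem2 was 60.5 CPM in monocytes, 123 CPM in these cells and 233 CPM in macrophages, and this order was seen in 8 of 8 arms. Apoe followed the same order in 7 of 8 arms, with a median of 1227 CPM in the cells between. Fabp5 was in the opposite order in 5 of 8 arms, with a median of 70.7 CPM. Cd63 was in rising order in 4 of 8 arms. A cell that holds both markers can be a single cell or a doublet within an arm, and these cannot be told apart here.

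At the level of single cells, after thinning each cell to 2000 UMIs, Trem2 was seen in 22.2% to 50% of macrophages per arm (median 35.7%) and in 4.48% to 16.4% of monocytes (median 8.47%). Without thinning the medians were 58.5% and 27.5%. Apoe was seen in a median of 65.5% of macrophages and 30.2% of monocytes after thinning. Thinning left out 31 macrophages and 11 monocytes. No thinned mature DC or T cell held a Trem2 UMI, and at most 3.77% of the T cells of an arm held an Apoe UMI, so the shares in monocytes lay above this background.

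Mature DC carried another part of the list, with Cd63 also higher in macrophages than in monocytes. Fabp5 and Cd63 were higher in mature DC than in macrophages and than in monocytes, while Trem2, Apoe, Gpnmb, Lgals3, Cd9 and Ctsd were lower in mature DC than in both. Against mature DC, 32.7% of 7494 genes were called higher and 22.1% lower in macrophages, and of the 8 members tested 6 were higher and 2 lower. For mature DC against monocytes, 22.0% of genes were called higher and 33.1% lower, and of 8 members 2 were higher and 6 lower. The comparisons share the mature DC sums.

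Fabp5 ranged from 1140 to 4972 CPM in mature DC, with a median of 2031, and the highest arm of any other class was at 236 CPM, in monocytes. Its log2 fold change was 3.67 ± 0.28 (SE, adjusted p = 2.05e-14) in mature DC against monocytes, and -4.77 ± 0.32 (SE, adjusted p = 1.07e-15) in macrophages against mature DC. Cd63 ranged from 952 to 2274 CPM in mature DC, with a median of 1336. Its log2 fold change was 5.99 ± 0.22 (SE, adjusted p = 7.37e-24) in mature DC against monocytes and -3.20 ± 0.20 (SE, adjusted p = 8.89e-17) in macrophages against mature DC. For both genes the ranges of mature DC and of the other 3 classes did not overlap.

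Trem2 was counted as 1 UMI and Apoe as 5 UMIs in all 145 mature DC. The pooled Trem2 level of macrophages was 395 times that of mature DC (95% interval 70.7 to 15600, counting error only), and at least 53.8 times without the long anti-MIF arm, which held the only mature DC UMI. Ctsd had 11 UMIs in mature DC, and its log2 fold change in macrophages against mature DC was 5.34 ± 0.34 (SE, adjusted p = 2.65e-16). Lgals3 had a log2 fold change of 2.57 ± 0.28 (SE, adjusted p = 2.95e-10) in the same comparison. In the short anti–PD-1 mature DC, 89 of 94 Lgals3 UMIs came from 1 cell. Cd9 differed least, at 0.65 ± 0.25 (SE, adjusted p = 0.0274), and did not pass without the short isotype arm (0.39, adjusted p = 0.252), without the long anti-MIF arm (0.64, adjusted p = 0.0720) or without the long anti–PD-1/anti-MIF arm (0.48, adjusted p = 0.117). In mature DC against monocytes Cd9 was at -0.77 ± 0.24 (SE, adjusted p = 0.00618), and did not pass without the long anti–PD-1/anti-MIF arm (-0.48, adjusted p = 0.0936) or without the short isotype arm (-0.57, adjusted p = 0.0688). Gpnmb and Lpl had no UMI in mature DC. With a floor of 3 UMIs over the class, pooled Gpnmb was at least 2.81-fold higher in macrophages and at least 10.4-fold higher in monocytes than in mature DC, and Lpl at least 6.04-fold and 3.67-fold higher. The limits for monocytes moved with single arms. Without long anti-MIF they were 5.87-fold for Gpnmb and 1.99-fold for Lpl, and without short anti–PD-1 the limit for Lpl was 1.29-fold.

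T cells served as a lymphoid class that should lack the myeloid genes. Of 7494 genes, 29.0% were called higher and 24.9% lower in macrophages than in T cells, and of 8 members 7 were higher and none lower. Trem2 had 3 UMIs, Apoe 9, Cd63 2, Gpnmb 2 and Lpl 0 in 470 T cells. Lgals3, Fabp5 and Cd9 were seen there as well, with 800 UMIs in 237 cells, 106 in 50 and 39 in 30. As a measure of free RNA, the T cells held 0.225% of the macrophage level of C1qa in the long cohort and 0.323% in the short cohort. Their Trem2 was at 0.193% and 0.667% of the macrophage level in the same cohorts. Lgals3 was at 18.9% and 13.3%, Fabp5 at 85.6% and 33.3%, and Cd9 at 6.01% and 7.27%.

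Ctsd was the only tested member not called between macrophages and T cells. T cells ranged from 204 to 592 CPM, with a median of 415, and macrophages from 169 to 736 CPM, with a median of 325. The log2 fold change in macrophages against T cells was -0.09 ± 0.17 (SE, adjusted p = 0.688), and T cells were above monocytes in 8 of 8 arms. Counted together with the cells that met both rules, macrophages passed as lower than T cells (-0.41, adjusted p = 0.0164). The 1209 Ctsd UMIs were spread over 345 of 470 T cells. Fabp5 was higher in macrophages than in T cells by 1.15 ± 0.39 (SE, adjusted p = 0.0128) on the log2 scale, a call lost in the long cohort alone (0.35, adjusted p = 0.592), without short anti–PD-1 (0.75, adjusted p = 0.125) and without short anti-MIF (0.87, adjusted p = 0.0779).

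**Figure D2:**
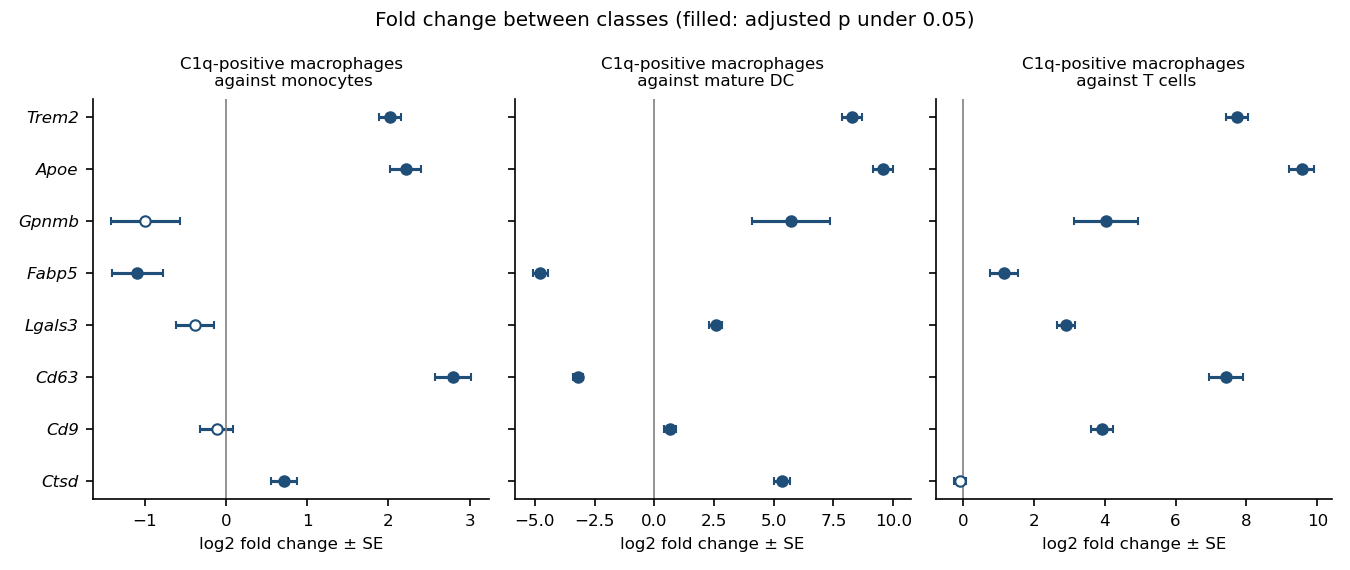
Log2 fold change (± SE) of the 8 tested genes in macrophages against monocytes, mature DC and T cells, with filled points where the adjusted p was under 0.05. Trem2 and Apoe lay above 0 in all 3 comparisons, while Fabp5 and Cd63 lay below 0 against mature DC.

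Over the 32 sums of 8 arms and 4 classes, the Pearson correlation of log2(CPM + 10) was 0.976 for Trem2 with Apoe and 0.811 for Trem2 with Lgals3. Fabp5 and Cd63 were correlated at 0.825, and Fabp5 and Ctsd at -0.913. With the 9 members and the genes of the class rules left out, the 10 most like Trem2 among 10655 genes with at least 50 UMIs were Sash1 (0.967), Rab7b (0.960), Stab1 (0.959), Dab2 (0.958), Cd300c2 (0.957), Adgre1 (0.956), Clec4a2 (0.956), Snx24 (0.956), Arhgap24 (0.954) and C3ar1 (0.953). The sums share the arm, library and depth, and most of the spread lies between the 4 classes, so these values describe a class pattern.

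The wider pathway was described with 5 lists. The TREM2 signalling list holds the adaptors, kinase and other enzymes below the receptor, the sheddases that cut it and the membrane protein gene Ms4a6d, and of its 9 genes, all tested, none was higher and 3 were lower in macrophages than in monocytes, with a median log2 fold change of -0.42 beside -0.02 for all genes tested. Over all genes 14.7% were called higher and 16.3% lower, the background for the counts of the 5 lists. They were Plcg2 (-0.54 ± 0.16, SE, adjusted p = 0.00936), the phospholipase below the receptor, Syk (-0.51 ± 0.15, SE, adjusted p = 0.00861), the kinase that TYROBP recruits, and Ms4a6d (-0.42 ± 0.13, SE, adjusted p = 0.00967). Plcg2 did not pass without the short isotype arm (adjusted p = 0.0553), nor Ms4a6d without the long anti-MIF arm (adjusted p = 0.0630). The receptor Trem2 was higher in the same cells.

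Of the lysosome list of 22 genes, 20 were tested, with 8 higher and 1 lower in macrophages and a median of 0.26. The largest changes were in the acid phosphatase Acp5 (1.88 ± 0.25, SE, adjusted p = 2.33e-07), the protease Lgmn (1.15 ± 0.14, SE, adjusted p = 2.10e-08) and the hydrolases Hexa (0.63) and Gusb (0.63). Of the cholesterol and lipoprotein list of 22 genes, 19 were tested, 2 were higher and 7 lower. Ch25h, which makes 25-hydroxycholesterol, was higher by 1.96 ± 0.34 (SE, adjusted p = 4.17e-05) and the phospholipid transfer gene Pltp by 1.61, whereas the scavenger receptor gene Scarb1 changed by -1.10 ± 0.23 (SE, adjusted p = 0.000213).

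The lipid uptake and droplet list of 16 genes had 11 tested, 1 higher and 4 lower. Dgat2, which makes triglyceride, changed by -3.19 ± 0.34 (SE, adjusted p = 9.10e-09) and the lectin-like scavenger receptor gene Olr1 by -1.31, and the acyl-CoA synthetase gene Acsl1 was higher by 0.73. Olr1 did not pass without long anti-MIF or without short isotype (adjusted p up to 0.0572). Acsl1 passed in 2 of 8 fits that each left out 1 arm, those without the combination arm of either cohort, with log2 fold changes of 0.47 to 0.99 over the 8 fits and adjusted p up to 0.204. Of the 12 other lipid-associated macrophage genes 9 were tested, 4 were higher and 2 lower, with Mmp12 at 3.01 ± 0.40 (SE, adjusted p = 2.15e-06), Timp2 at 2.00, Hvcn1 at 1.81 and Itgax at 0.95. Against mature DC, the lists in the order given here had 7 of 9, 16 of 20, 10 of 19, 5 of 11 and 7 of 9 tested genes higher in macrophages, and 0, 1, 5, 2 and 2 lower. Over all genes tested 32.7% were higher and 22.1% lower against mature DC, with a median log2 fold change of 0.21.

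Within macrophages, cells with and without a Trem2 UMI were compared in the 4 arms that had at least 10 cells on each side after thinning to 3000 UMIs, which left out 61 macrophages of the 8 arms. Apoe was higher in the Trem2-positive cells in 4 of 4 arms, by between 0.65 and 0.96 on the log2 scale (fitted log2 fold change 0.82 ± 0.14, SE, adjusted p = 0.000757). The long anti-MIF arm gave 123 positive and 99 negative cells, the long anti–PD-1/anti-MIF arm 14 and 18, the short isotype arm 40 and 37, and the short anti-MIF arm 12 and 14. Of 1529 genes tested 0.589% were called, and of the 6 members tested Apoe passed. Cd63 was at 0.83 ± 0.29 (SE, adjusted p = 0.433), and Fabp5 (-0.15), Lgals3 (0.00), Cd9 (-0.12) and Ctsd (0.10) did not pass. Cd9 did not have the same sign in every arm, a difference that was not tested. It was higher in Trem2-positive cells of the long anti-MIF arm, at 0.53, and at -0.92, -0.54 and -0.96 in the long anti–PD-1/anti-MIF, short isotype and short anti-MIF arms, and the fit without long anti-MIF gave -0.77 (adjusted p = 0.995).

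Called with the same sign in all 4 arms were also Hspa1b, a heat shock gene, at 1.13 ± 0.27 (SE, adjusted p = 0.0401), and, lower in Trem2-positive cells, the monocyte gene Plac8 at -1.57 ± 0.23 (SE, adjusted p = 7.71e-05), the histone gene Hist1h2ae at -2.32 ± 0.45 (SE, adjusted p = 0.00366) and the interferon-induced gene Ifitm1 at -0.84 ± 0.18 (SE, adjusted p = 0.0101). The Apoe call was lost without the short isotype arm (0.81, adjusted p = 0.140), in the short cohort alone (0.90, adjusted p = 0.213), with thinning to 2000 UMIs (0.97, adjusted p = 0.0571) and without the arm as a block (0.82, adjusted p = 1.00). The other 4 calls were lost in more settings. None was made with thinning to 2000 UMIs, without the short isotype arm or without the arm as a block. Plac8 kept its call in the remaining settings except without long anti-MIF (-1.39, adjusted p = 0.0757) and in the short cohort alone (-1.36, adjusted p = 0.132). Hspa1b and Ifitm1 did not pass without long anti-MIF (1.11 and -0.84, adjusted p = 0.418 each), Hspa1b not without short anti-MIF (1.17, adjusted p = 0.0550), and neither with DESeq2 (adjusted p = 1.00 and 0.408). Hist1h2ae did not pass with DESeq2 (-2.41, adjusted p = 0.366), and was at -0.34 (adjusted p = 0.920) with no thinning. Without long anti-MIF no gene was called lower, Hist1h2ae included. In the short cohort alone no gene was called higher, Hspa1b included. Hspa1b turned to -0.31 (adjusted p = 0.902) with gates of 1 UMI. A Trem2-negative cell in thinned counts may still express Trem2.

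**Figure D3:**
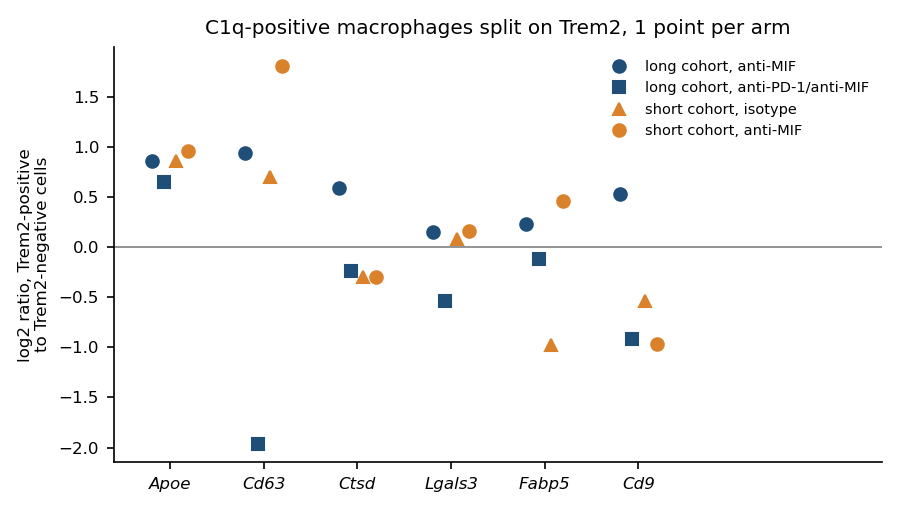
Log2 ratio of Trem2-positive to Trem2-negative macrophages in each of the 4 arms (1 point per arm; blue, long cohort; orange, short cohort) for the 6 tested genes. Apoe lay above 0 in each arm, between 0.65 and 0.96.

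The treatment arms were then compared within macrophages, to ask whether the genes moved with anti-MIF or with anti–PD-1. None of the 8 members tested passed for either antibody. With anti-MIF, 0.0% of 4768 genes were called by edgeR, 189 had an unadjusted p under 0.05, and DESeq2 called 1. With anti–PD-1, 0.0% were called, 208 had an unadjusted p under 0.05, and DESeq2 called 0. Gpnmb did not reach the minimum count in macrophages. The tests use 8 arms of 1 sample each and pool the arms over the cohorts, so that they measure the spread between arms.

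Trem2 in macrophages was at 213 (isotype), 193 (anti–PD-1), 345 (anti-MIF) and 234 CPM (anti–PD-1/anti-MIF) with long treatment, and at 316, 148, 233 and 269 CPM with short treatment, in the same order. Anti-MIF arms were above their partners in 3 of 4 pairs, and the log2 fold change was 0.22 ± 0.26 (SE, adjusted p = 1.00). With anti–PD-1 it was -0.46 ± 0.25 (SE, adjusted p = 1.00), lower in 3 of 4 pairs.

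Apoe in macrophages was at 2093, 3303, 4230 and 1996 CPM with long treatment and at 2790, 573, 2226 and 729 CPM with short treatment, in the order used for Trem2. The 2 short arms with anti–PD-1 were the lowest of the 8. The log2 fold change with anti–PD-1 was -1.08 ± 0.38 (SE, adjusted p = 1.00), lower in 3 of 4 pairs, and with anti-MIF it was -0.16 ± 0.36 (SE, adjusted p = 1.00). For anti–PD-1 Apoe passed with no filter on low counts (-1.15, adjusted p = 0.0215) and in the short cohort alone (-2.04, adjusted p = 7.37e-14), a fit with 1 residual degree of freedom. The monocyte list in macrophages summed to 618, 1900, 1857 and 985 CPM in the short arms, in the same order. Its part in the Apoe values was not tested.

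Ctsd in macrophages was at 736, 461, 317 and 263 CPM with long treatment and at 333, 169, 361 and 205 CPM with short treatment, in the same order. It was lower with anti–PD-1 in 4 of 4 pairs, and the log2 fold change was -0.64 ± 0.27 (SE, adjusted p = 1.00). Lgals3 was at 2469, 1768, 1520 and 1161 CPM with long treatment and at 2222, 2561, 1849 and 2212 CPM with short treatment. It was lower with anti-MIF in 4 of 4 pairs, with a log2 fold change of -0.49 ± 0.18 (SE, adjusted p = 1.00).

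Lpl had the largest log2 fold change of the members with anti-MIF, at -3.72 ± 0.98 (SE, adjusted p = 1.00), and its levels rested on single cells. It was at 311, 99.2, 4.96 and 12.4 CPM with long treatment and at 9.36, 9.05, 20.1 and 0 CPM with short treatment, in the same order of arms. All 19 UMIs of the long isotype arm came from 1 of its 8 macrophages, and 11 of the 17 UMIs of the long anti–PD-1 arm came from 1 cell. With no filter on low counts Lpl passed the test (-3.69, adjusted p = 1.03e-06). The 6 fits that left out 1 arm and still tested Lpl gave between -4.84, without short anti-MIF, and -1.63, without long anti-MIF. Without the long isotype arm or the long anti–PD-1 arm, which held 19 and 17 of the 71 UMIs, Lpl did not reach the minimum count, so the value was not obtained without them. The remaining members had log2 fold changes with anti-MIF of 0.58 for Fabp5, -0.64 for Cd63, 0.09 for Cd9 and -0.48 for Ctsd, and with anti–PD-1 of 0.49 for Fabp5, -0.60 for Cd63, -0.03 for Cd9, -0.06 for Lgals3 and -0.55 for Lpl. In the same 6 fits the Lpl value with anti–PD-1 lay between -1.77 and -0.37.

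The difference of the anti-MIF effect between the cohorts was tested as an interaction, for which 0.524% of 4768 genes were called. None of the 8 members passed, the nearest being Lpl (-5.33 ± 1.49, SE, adjusted p = 0.242) and Cd9 (1.59 ± 0.48, SE, adjusted p = 0.332). Lpl passed without the long anti–PD-1 arm (-5.93, adjusted p = 0.0488), without the long anti–PD-1/anti-MIF arm (-6.05, adjusted p = 0.0169), and with no filter on low counts (-5.14, adjusted p = 0.00805), and was at 0.73 without the short anti-MIF arm. Of the 5 pathway lists 1 gene was called for the interaction, Acp5 of the lysosome list (-2.80 ± 0.51, SE, adjusted p = 0.0298), and not without short anti–PD-1, short anti-MIF or short anti–PD-1/anti-MIF (adjusted p up to 0.264). For the long against the short cohort, 0.0629% of genes were called and none of 8 members. Fabp5 was at 32.7, 64.2, 49.0 and 44.7 CPM with long treatment and at 62.9, 121, 160 and 192 CPM with short treatment, with 1 long arm just above the lowest short arm. Its log2 fold change was -1.45 ± 0.30 (SE, adjusted p = 0.101) by edgeR, while DESeq2 gave -1.44 with an adjusted p of 0.0431. For Apoe it was 1.17 ± 0.38 (SE, adjusted p = 0.234), for Lpl 3.0 ± 0.98 (SE, adjusted p = 0.234), for Ctsd 0.68 ± 0.27 (SE, adjusted p = 0.301), and for Cd9 -0.91 ± 0.32 (SE, adjusted p = 0.257). The Lpl value lay between 1.65, without short isotype, and 4.21, without short anti-MIF, in the 6 fits that left out 1 arm and tested it, none of them without long isotype or long anti–PD-1. With no filter on low counts Apoe (1.14, adjusted p = 0.00462), Lpl (2.86, adjusted p = 0.000265) and Fabp5 (-1.44, adjusted p = 0.00501) passed between the cohorts. Trem2 was at 0.07, Lgals3 at -0.40 and Cd63 at 0.44. Of the 5 pathway lists, no gene was called between the cohorts in macrophages.

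**Figure D4:**
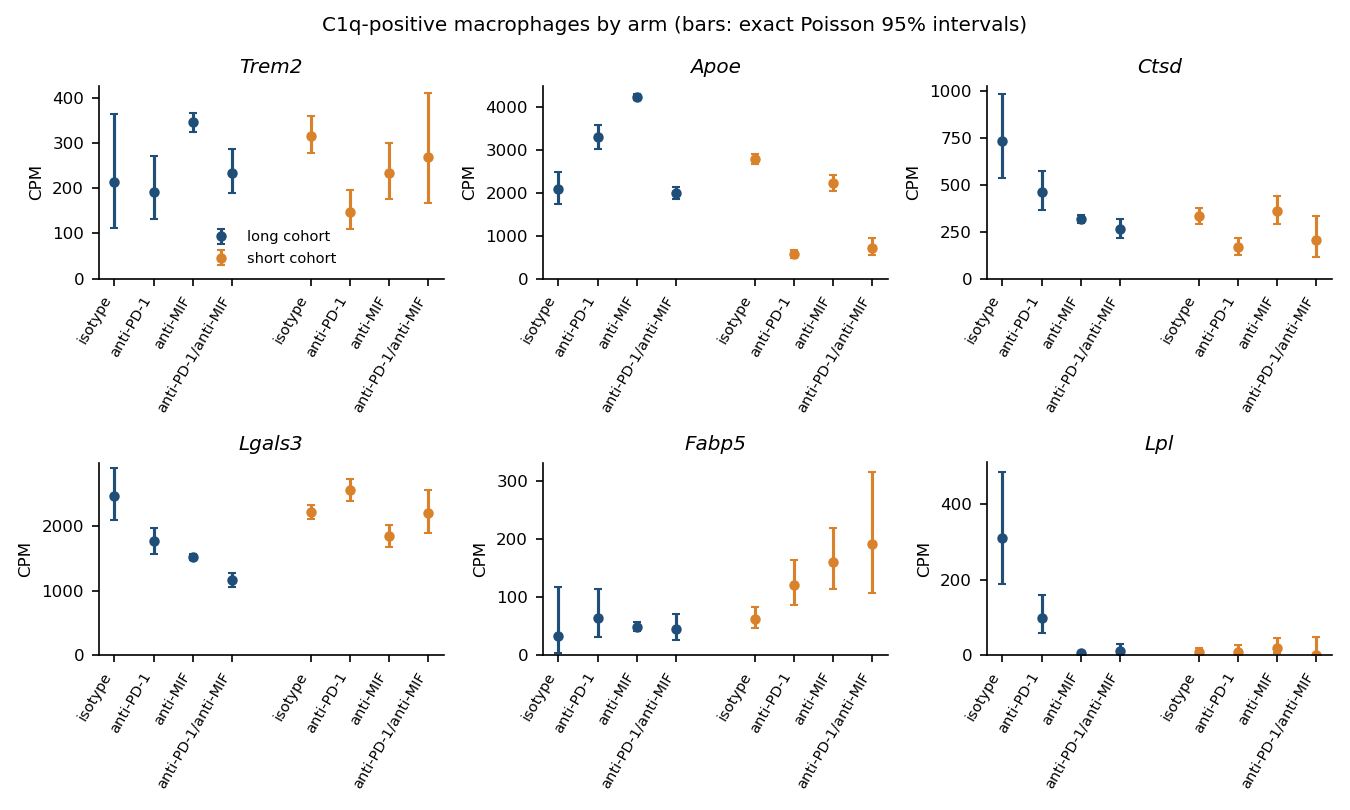
Levels of Trem2, Apoe, Ctsd, Lgals3, Fabp5 and Lpl in macrophages (CPM) by arm and cohort, with exact Poisson 95% intervals that cover counting error only. Apoe was lowest in the short anti–PD-1 arm, at 573 CPM, and Lpl was highest in the long isotype arm, at 311 CPM, where all 19 UMIs came from 1 cell.

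In monocytes, which were more numerous than macrophages in 7 of the 8 arms, all 9 genes were tested. With anti-MIF 0.0% of 8127 genes were called by edgeR, none of the 9 members among them, 470 genes had an unadjusted p under 0.05, and DESeq2 called 0. Between the cohorts 4.42% were called, and none of the 9 members. Of the pathway lists 3 genes were called between the cohorts, a count not tested against the 4.42% called over all genes. They were Pnpla2, which encodes a triglyceride lipase, at 0.83 ± 0.17 (SE, adjusted p = 0.0315), the actin-capping gene Capg at 0.60 ± 0.13 (SE, adjusted p = 0.0333) and Aplp2 at -0.53 ± 0.13 (SE, adjusted p = 0.0448). The calls depended on single arms. Of 8 fits that left out 1 arm, Pnpla2 and Capg passed in 1 each, without long anti–PD-1/anti-MIF, and Aplp2 in 0, with adjusted p up to 0.115, 0.131 and 0.163.

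Gpnmb in monocytes was at 74.8, 52.0, 0.809 and 15.8 CPM with long treatment and at 31.6, 24.7, 13.7 and 15.9 CPM with short treatment, with isotype first, then anti–PD-1, anti-MIF and the combination. The 4 arms with anti-MIF were the 4 lowest, and the log2 fold change was -1.83 ± 0.51 (SE, adjusted p = 0.793). Over the 8 fits that each left out 1 arm it lay between -2.23 and -1.22. Few cells carried these UMIs. In the long isotype arm 39 UMIs lay in 8 of 56 cells, and in the long anti-MIF arm 1 UMI was found in 115 cells. With no filter on low counts Gpnmb passed the test (-1.85, adjusted p = 3.54e-10).

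Apoe in monocytes was at 447, 283, 924 and 459 CPM with long treatment and at 375, 332, 387 and 283 CPM with short treatment, in the same order, with the long anti-MIF arm apart from the rest. Its log2 fold change with anti-MIF was 0.35 ± 0.21 (SE, adjusted p = 0.889), and between the cohorts 0.52 ± 0.21 (SE, adjusted p = 0.177). Trem2 in monocytes was at 80.5, 39.0, 89.0 and 54.7 CPM with long treatment and at 66.4, 44.9, 70.3 and 38.9 CPM with short treatment, with a log2 fold change of 0.06 ± 0.27 (SE, adjusted p = 1.00) with anti-MIF. The other members had log2 fold changes with anti-MIF of -1.10 for Lpl, -0.30 for Fabp5, -0.22 for Lgals3, 0.22 for Cd63, 0.17 for Cd9 and 0.19 for Ctsd. Lpl was tested in only 3 of the fits that left out 1 arm, with values between -1.89 and -0.14. Between the cohorts Ctsd came nearest to the threshold, at 0.65 ± 0.21 (SE, adjusted p = 0.102), and passed without the long anti-MIF arm (0.89, adjusted p = 0.0290) and with no filter on low counts (0.61, adjusted p = 0.00503), where Apoe also passed (0.48, adjusted p = 0.0307). Trem2 (0.25), Gpnmb (0.50), Lpl (-0.45), Fabp5 (0.13), Lgals3 (0.10), Cd63 (-0.19) and Cd9 (0.12) did not pass.

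**Figure D5:**
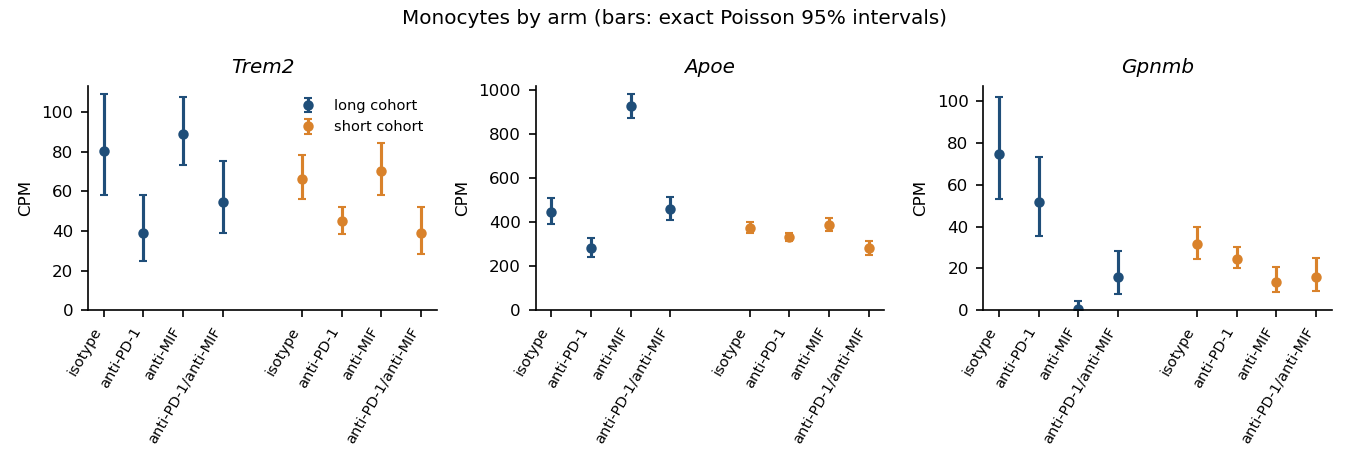
Levels of Trem2, Apoe and Gpnmb in monocytes (CPM) by arm and cohort, with exact Poisson 95% intervals that cover counting error only. Gpnmb was lower in the 4 arms with anti-MIF, between 0.809 and 15.9 CPM, than in the other 4, between 24.7 and 74.8 CPM.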

How the data were processed

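Single-cell RNA-Seq of 8 treatment arms in 2 cohorts was read from 2 gene expression and 2 hashtag libraries. The authors deposited unnormalized UMI counts, whole numbers for each barcode and gene or hashtag, from the 10x 5′ kit. Per the labels' processing notes, Cell Ranger 7.1.0, Seurat 5.1.0 and R 4.3.2 were used on the mm10 build. The annotation version is not given in the sources used here.

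Barcodes were assigned to arms with HTODemux (Seurat 5.3.0, R 4.3.3, positive quantile 0.99), and hashtag doublets and negatives were removed. Doublets within an arm carry 1 hashtag and were not removed, and free RNA was not subtracted. A 5th hashtag, whose name adds DDT to the combination, is not among the arms the labels describe and was used only where named. Cells with 200 to 5000 genes and at most 5% mitochondrial UMIs were kept, and cells that met the rules of more than 1 class were left out. The genes and lists followed here were chosen with earlier results of these data known.

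Sums of UMIs over the cells of an arm and class entered edgeR 4.0.16 quasi-likelihood tests (filterByExpr, TMM, Benjamini-Hochberg over all genes tested, threshold 0.05). Class comparisons put all 4 classes and the arm as a block into 1 fit. Treatment fits used the 8 arms with cohort, anti–PD-1 and anti-MIF as additive terms, and the interaction added anti-MIF by cohort. For the Trem2 split, cells were thinned to 3000 UMIs and arms with at least 10 cells on each side entered. Arms are not labelled as separate animals or cultures, so p-values measure only the spread between these samples. Ratios within 1 arm add 0.5 UMI. Intervals are exact Poisson, conditional binomial or Clopper-Pearson 95% intervals and cover counting error only.

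The genes named were the 9 members in every comparison, at most 4 called genes of each list with the largest change, the 10 genes most like Trem2, and the genes called in the Trem2 split with 1 sign in every arm. One gene that this rule names is not reported here. Alternatives were gates at 1 or 4 UMIs, DESeq2 1.42.0, its size factors in edgeR, no filter on low counts, no upper limit on genes, other thinning, single cohorts, leaving out each arm, the arm of the 5th hashtag added, other class sets and no arm block. Pooled ratios and called list genes were recomputed without each arm after the data had been seen, and the genes called in the Trem2 split under each alternative. The fits were tested on simulated data.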

Additional observations from a re-analysis of the deposited data

Results flagged for a closer look

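Of 49 sets of arms examined, 4 held an arm far from the others. The rule flags about 1 in 20 sets of normally distributed values. Sets with few UMIs, such as those of Lpl and Gpnmb, are not distributed in that way, so the 4 cannot be set against that rate. Gpnmb in macrophages was at 51.1 CPM in the short anti–PD-1/anti-MIF arm, and all 4 UMIs lay in 1 of its 11 cells. Lpl in macrophages was at 311 CPM in the long isotype arm, from 1 of 8 cells. Lpl in monocytes was at 19.2 CPM in the short anti–PD-1 arm, where 77 UMIs were spread over 40 of 579 cells. Apoe in monocytes was at 924 CPM in the long anti-MIF arm, against 283 to 459 CPM in the other arms.

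Cells of the 5th hashtag, whose name adds DDT to the combination, entered the fits above only as an alternative. In the short cohort their macrophages were above the isotype arm for Lpl (80.7 against 9.36 CPM, with 25 of 26 UMIs from 1 cell), Fabp5 (227 against 62.9 CPM) and Lgals3 (2715 against 2222 CPM). In the long cohort the 11 macrophages of the same hashtag were below the isotype arm for all 3 genes, at 10.4 against 311 CPM for Lpl, 0 against 32.7 CPM for Fabp5 and 2200 against 2469 CPM for Lgals3. Of the other members in the short cohort, Cd9 was above the isotype arm in macrophages of this hashtag. Trem2, Apoe, Gpnmb, Cd63 and Ctsd were below it. These differences have no replicate.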

How the results depend on the processing

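Of the values of members called in the report, 572 of 590 under other settings kept their direction and their call, 18 fell short of the threshold and 0 turned sign. Of those not called, 802 of 909 stayed as they were, 25 passed the threshold and 82 turned sign. The calls lost are given in the report, except Cd9 in macrophages against mature DC (gates of 1 UMI, 0.56, adjusted p = 0.0900, DESeq2, 0.58, adjusted p = 0.0957, long cohort alone, 0.33, adjusted p = 0.392) and in mature DC against monocytes (short cohort alone, -0.49, adjusted p = 0.207). A fit of treatment in 1 cohort has 1 residual degree of freedom. The causes of these changes were not tested. The labels give the arms no replicate numbers, so no replicate block was fitted. The classes of 1 arm were paired by the arm block of the class comparisons and of the Trem2 split.

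With DESeq2, the genes called numbered 1 for anti-MIF in macrophages, 40 for the cohorts in macrophages and 2 for the Trem2 split. With gates of 1 UMI, the genes called numbered 0 for the cohorts in macrophages and 1 for anti-MIF in monocytes. With gates of 4 UMIs, the genes called numbered 1 for anti-MIF in macrophages, 17 for the cohorts in macrophages, 10 for anti-MIF by cohort, 165 for the cohorts in monocytes and 15 for the Trem2 split. With thinning to 2000 UMIs, the genes called numbered 745 for macrophages against monocytes, 1461 for macrophages against mature DC, 1360 for macrophages against T cells, 1453 for mature DC against monocytes, 0 for anti-MIF by cohort, 20 for the cohorts in monocytes and 0 for the Trem2 split. With the long cohort alone, the genes called numbered 1236 for macrophages against monocytes, 2 for anti-MIF in monocytes and 21 for the Trem2 split. With no arm block, the genes called numbered 0 for the Trem2 split. With no filter on low counts, the genes called numbered 13 for anti-MIF in macrophages, 14 for anti–PD-1 in macrophages, 136 for the cohorts in macrophages, 90 for anti-MIF by cohort, 93 for anti-MIF in monocytes and 839 for the cohorts in monocytes. With the 2 classes alone, the genes called numbered 2559 for macrophages against mature DC. With the short cohort alone, the genes called numbered 1018 for macrophages against monocytes, 2177 for macrophages against mature DC, 2233 for macrophages against T cells, 2316 for mature DC against monocytes, 80 for anti-MIF in macrophages, 74 for anti–PD-1 in macrophages, 171 for anti-MIF in monocytes and 1 for the Trem2 split. With DESeq2, the members called numbered 1 for the cohorts in macrophages. With thinning to 2000 UMIs, the members called numbered 0 for the Trem2 split. With no arm block, the members called numbered 0 for the Trem2 split. With no filter on low counts, the members called numbered 8 for macrophages against monocytes, 1 for anti-MIF in macrophages, 1 for anti–PD-1 in macrophages, 3 for the cohorts in macrophages, 1 for anti-MIF by cohort, 1 for anti-MIF in monocytes and 2 for the cohorts in monocytes. With the short cohort alone, the members called numbered 1 for anti–PD-1 in macrophages and 0 for the Trem2 split. Leaving out each arm gave between 0 and 2 genes for the cohorts in macrophages, 9 and 72 genes for anti-MIF by cohort, 0 and 1 members for anti-MIF by cohort, 0 and 5 genes for anti-MIF in monocytes, 2 and 414 genes for the cohorts in monocytes, 0 and 1 members for the cohorts in monocytes, 0 and 14 genes for the Trem2 split and 0 and 1 members for the Trem2 split. Without thinning, the median share of cells with a UMI was 58.5% for Trem2 in macrophages, 27.5% for Trem2 in monocytes and 46.0% for Apoe in monocytes.

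With DESeq2 the log2 fold change turned sign for Lgals3 (-0.016) and Ctsd (-0.017) for the Trem2 split. With gates of 1 UMI the log2 fold change turned sign for Lgals3 (0.0050) and Cd9 (0.10) for anti–PD-1 in macrophages, Fabp5 (-0.020) for the cohorts in monocytes, Lgals3 (-0.038) for the Trem2 split. With gates of 4 UMIs the log2 fold change turned sign for Cd9 (-0.50) for anti-MIF in macrophages, Apoe (-0.32) and Lgals3 (0.16) for anti-MIF by cohort, Cd63 (0.23) for the cohorts in monocytes, Lgals3 (-0.031) for the Trem2 split. With thinning to 2000 UMIs the log2 fold change turned sign for Cd9 (0.19) for macrophages against monocytes, Trem2 (-0.066) for anti-MIF in macrophages, Apoe (-0.77) for anti-MIF by cohort, Trem2 (-0.25), Fabp5 (0.093) and Ctsd (-0.038) for anti-MIF in monocytes, Cd9 (-0.35) for the cohorts in monocytes, Lgals3 (-0.0085) and Cd9 (0.018) for the Trem2 split. With the long cohort alone the log2 fold change turned sign for Apoe (0.15) and Fabp5 (-0.13) for anti-MIF in macrophages, Fabp5 (0.15), Lgals3 (-0.086) and Cd9 (0.22) for the Trem2 split. With no filter on low counts the log2 fold change turned sign for Lgals3 (0.075) for anti-MIF by cohort, Lgals3 (-0.020) for the Trem2 split. With no thinning the log2 fold change turned sign for Fabp5 (0.22) and Lgals3 (-0.14) for the Trem2 split. With the short cohort alone the log2 fold change turned sign for Cd9 (0.34) for macrophages against monocytes, Trem2 (-0.076), Cd9 (-0.52) and Ctsd (0.039) for anti-MIF in macrophages, Lgals3 (0.17) and Cd9 (0.26) for anti–PD-1 in macrophages, Trem2 (-0.10), Apoe (-0.15) and Cd63 (-0.21) for anti-MIF in monocytes, Ctsd (-0.31) for the Trem2 split. With the arm of the 5th hashtag the log2 fold change turned sign for Cd9 (0.083) for macrophages against monocytes. Leaving out each arm in turn spanned 0 for these members, over the fits in which they reached the minimum count. For anti-MIF in macrophages the range was Apoe -0.53 to 0.39 and Cd9 -0.23 to 0.39. For anti–PD-1 in macrophages the range was Lgals3 -0.18 to 0.015 and Cd9 -0.39 to 0.25. For the cohorts in macrophages the range was Trem2 -0.15 to 0.32 and Cd63 -0.081 to 0.72. For anti-MIF by cohort the range was Apoe -0.80 to 1.79, Lpl -6.05 to 0.73, Lgals3 -0.33 to 0.017 and Cd63 -1.34 to 0.96. For anti-MIF in monocytes the range was Trem2 -0.021 to 0.16, Cd63 -0.0076 to 0.64, Cd9 -0.063 to 0.41 and Ctsd -0.046 to 0.39. For the cohorts in monocytes the range was Gpnmb -0.061 to 0.98, Lpl -1.05 to 0.90, Fabp5 -0.073 to 0.25, Lgals3 -0.038 to 0.23, Cd63 -0.52 to 0.15 and Cd9 -0.12 to 0.33. For the Trem2 split the range was Lgals3 -0.075 to 0.13, Cd9 -0.77 to 0.0071 and Ctsd -0.32 to 0.22.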

Other observations

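Monocytes with a Gpnmb UMI, chosen after their values were seen and given no test, were compared with other monocytes after thinning to 3000 UMIs, which left out 43 cells. The 46 Gpnmb-positive cells held 16.1 Lgals3 UMIs per cell against 6.74 in 1431 negative cells, higher in 6 of 6 arms with at least 3 cells on each side. Vegfa, the vascular growth factor gene, was at 1.76 against 0.653 UMIs per cell, higher in 6 of 6 arms, and Spp1, which encodes osteopontin, at 2.39 against 0.569, higher in 5 of 6 arms. Fabp5 was at 1.39 against 0.511 UMIs per cell (5 of 6 arms) and Ctsd at 0.848 against 0.490 (5 of 6 arms). Trem2 and Apoe were higher in 3 of 6 arms each, at 0.304 against 0.143 and 1.87 against 1.25 UMIs per cell.

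Trem2 and Apoe in monocytes were lower in the arms with anti–PD-1 than in their partners in 4 of 4 pairs each, by -1.03 to -0.56 for Trem2 and -1.01 to -0.18 for Apoe on the log2 scale. This was noticed in the values and not tested.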
